A study of Danio rerio with 6 samples.

Results

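The retina of wild-type zebrafish embryos of the AB strain was profiled at 52 hours post fertilization (hpf) on Affymetrix zebrafish expression arrays, and the 3 arrays labelled as retina without attached pigment epithelium are described here, of 6 arrays in the series. They were chosen by their labels alone. Each array carried 1 pool of 10 dissected tissues, and 33 ng of total RNA per pool was labelled with biotin after 2 cycles of amplification. The pools are biological replicates per the labels, which say nothing of the number of embryos or clutches behind them. The other 3 arrays, of retina with the retinal pigment epithelium (RPE) attached from the same strain and age, were not compared with these. No group is set against another, so no test applies and every value is a description of these 3 pools.

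The vertebrate retina is built from a sheet of dividing progenitors that carry eye field transcription factors such as Pax6, Rx and Six3. Proneural transcription factors then drive cells out of the cycle, and ganglion cells are born first, followed by amacrine, horizontal, cone, bipolar, rod and Müller glial cells in overlapping waves. In zebrafish most of this happens within the first days of development. Around the age sampled here the central retina already holds postmitotic neurons, while the rim keeps dividing and the first photoreceptors begin to express opsins.

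Of 15617 probe sets on the array, 115 were controls and 15502 were used. A single gene name was given for 10795 of them, which covered 8793 genes, and each gene was read from its brightest probe set on average. Intensity is the deposited linear array signal. The array medians were 69.1, 68.7 and 69.6 in pools 1, 2 and 3, and pairs of pools correlated at r = 0.994 to 0.995 across probe sets, which are not independent replicates. With 3 arrays the precision of each mean is limited. Probe sets bind their targets with different strength, so a rank says how bright a gene's probe set was and not how many transcripts there were per cell. In the 1539 genes with more than 1 probe set, the brightest and dimmest probe set of the same gene differed by a median of 1.81 on the log2 scale. This is 3.50-fold, and 71.99% differed by at least 1. What part of this gap comes from binding strength was not tested. Since tissue was measured in bulk, fewer cells of a type and less RNA per cell cannot be told apart.

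Gene levels spanned more than 11 doublings of intensity, from 8.97 to 25801 as means over the pools, for zgc:92161 and COX1. The median gene lay at 113, the lower and upper quartiles at 34.4 and 419, and the 99th percentile at 7127. The signal was concentrated: the 20 brightest genes held 7.04% of the summed intensity of all genes, the 100 brightest 23.3% and the 1000 brightest 66.5%. Control probe sets give the level read without a target. The bacterial trpn probe sets, for an RNA that zebrafish lack, reached a mean of 17.1, and 7977 of 8793 genes (90.7%) were above it. The 17 probe sets for artificial tag sequences reached 69.5, and 5202 genes (59.2%) were above that. Of 3 probe sets for red and green fluorescent proteins, the 1 for EGFP read higher still, at 147, with 4017 genes above it. Those for the red proteins read 58.6 and 49.4, below the highest artificial tag. A gene between 17.1 and 69.5 therefore reads no higher than some sequences the embryo does not have, and the number of silent genes depends on which control is used.

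**Figure D1:**
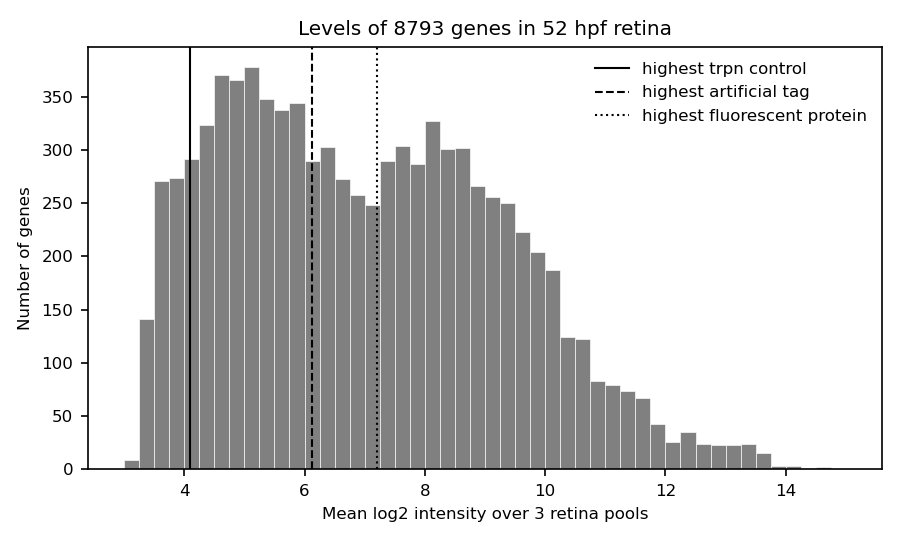
Number of genes (vertical axis) by mean log2 intensity over the 3 retina pools (horizontal axis), in bins of equal width on the log2 scale. Vertical lines mark the highest trpn control, artificial tag and fluorescent protein probe set, and 90.7% and 59.2% of genes lie right of the first and second line.

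The brightest gene was COX1, the mitochondrial gene for a catalytic subunit of cytochrome c oxidase, at 26651, 25213 and 25538 in pools 1, 2 and 3. Its other probe sets read 18886, 18054 and 17537, and 13781, 12850.1 and 12297, and stayed far above the 99th percentile of genes. Next came rps2, a protein of the small ribosomal subunit, at 24495, 24631 and 24105, and rpl3, of the large subunit, at 21070.2, 18436 and 19294. The ribosomal scaffold protein gene rack1 followed at 17829, 19211 and 19348, and eef1a1l1, which brings aminoacyl-tRNA to the ribosome, at 18746, 17504 and 17637. Ribosomal protein genes filled most of the other places: rpsa, rps3, rplp0, rps20, rpl10, rpl8, rps27a, rps16, rps9, rpl7a and rpl4 all ranked in the first 20.

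The remaining places in the first 20 went to 4 genes of other kinds. The chromatin protein gene hmga1a, of a high mobility group family that is high in dividing embryonic cells, read 14397, 13142 and 13091. The prothymosin gene ptmab read 15817, 11423 and 13631, the widest spread of these 4. The alpha tubulin gene tuba8l4 read 12679, 12728 and 13408, and cirbpb, a cold-inducible RNA-binding protein gene, 13497, 12461 and 11761. The order is not sharp, because the ranges over the pools overlapped in 17 of the 19 neighbouring pairs. On all 3 arrays 15 of the 20 genes stayed within the first 20, and 84 of the first 100 within the first 100.

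Among the 100 brightest genes, 53 belonged to the ribosomal protein list, of 70 measured; the list was built from symbols and does not hold rpsa, so it undercounts such genes. A further 7 belonged to the neuronal cytoskeleton and axon growth list, 4 to translation factors and 2 were heat shock genes, and 34 were in no list. The heat shock genes were the constitutive chaperones hspa8, at 12845, 10568 and 12131, and hsp90ab1, at 10104, 9014 and 8918. The other probe set of hsp90ab1 read 22.1, 22.0 and 22.3, below the highest artificial tag. Creatine kinase ckbb, which buffers ATP in brain and retina, read 11186, 10303 and 11040.4. The cytosolic malate dehydrogenase gene mdh1aa read 11521, 13046 and 11021. Of the 100 brightest probe sets of any kind, 13 have no gene name in the annotation used and are not described.

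The 32 gene lists were placed on this scale by the rank percentile of each member, where 50 is the median gene. Counts of members among the brightest 25% of genes are given too. Where members above the artificial tags are counted, the share over all genes is 59.2%. For members above the trpn controls it is 90.7%. Lists of general cell machinery and of the neuronal cytoskeleton stood highest. The ribosomal list had a median percentile of 99.3, the neuronal cytoskeleton list 95.4, the proteasome list 92.3, oxidative phosphorylation 90.3 and translation factors 86.1. The exception within the ribosomal list was rps27l, a relative of rps27, at 101, 125 and 98.8, while the 69 others were in the brightest 25%. Among the ATP synthase genes atp5mc3b read 5463, 5277 and 7203 and atp5f1b 5971, 5362 and 6209.8. The proteasome core gene psmb1 read 3789.7, 3756 and 4411.

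**Figure D2:**
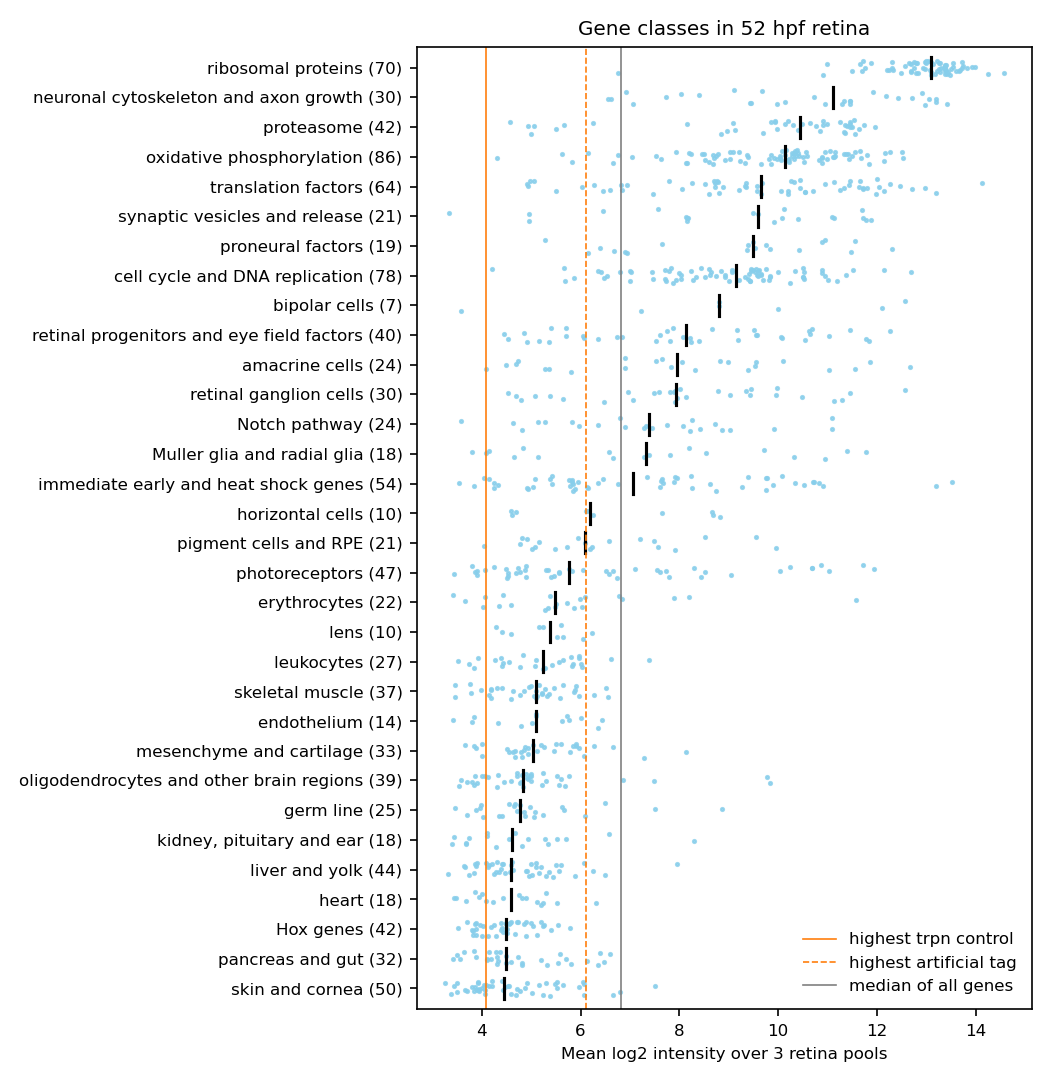
Mean log2 intensity over the 3 retina pools (horizontal axis) of each measured member (blue points) of the 32 gene lists (rows, number measured in brackets), ordered by list median (black ticks). Vertical lines mark the highest trpn control, the highest artificial tag and the median of all genes; lists of dividing cells, proneural factors and inner retinal neurons have their ticks right of the tag line, and photoreceptors and organs outside the eye left of it.

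Genes of dividing cells were mostly bright. All 78 measured cell cycle and DNA replication genes were above the trpn controls, against 90.7% of all genes. Of these, 74 were above the artificial tags and 46 in the brightest 25%. The replication clamp gene pcna led at 6664, 6488 and 6616, a spread of 1.03-fold between pools. The chromatin protein gene hmgb2b, high in cycling cells, read 4505, 4136 and 4948. Its other probe set read 223, 248 and 310. Cyclin D1, which drives entry into S phase, had ccnd1 values of 3005, 3273 and 2525. The ribonucleotide reductase gene rrm1, needed to make DNA precursors, read 2183, 2242 and 2651.

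Within that list the median intensity was 796 for 8 cyclin and kinase genes, 688 for 12 mitosis genes, 589 for 20 DNA synthesis genes and 234 for 19 genes of replication licensing and forks. The mitotic kinase gene plk1 read 1749.5, 1933 and 1997. The proliferation marker mki67 read 691, 698 and 777 on its brightest probe set, and its other 2 probe sets lay below the highest artificial tag. The 6 subunits of the Mcm2-7 helicase, which act as 1 complex, were spread widely: mcm7 averaged 1905 ± 124 and mcm6 89.1 ± 9.30 (SD, n = 3 each). The other 4 lay between 688 for mcm3 and 1458 for mcm2. The other probe set of mcm3 read 76.1, 73.3 and 82.9, overlapping with mcm6, so this spread depends on which probe set is read. The dimmest gene of the list was e2f5, a repressor E2F, at 17.7, 19.6 and 18.01. Exit from the cycle was represented too, by cdkn1ca, a cyclin-dependent kinase inhibitor of the p57 type, at 495, 481 and 641.

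All 40 measured progenitor and eye field genes were above the trpn controls, against 90.7% of all genes. Of these, 29 were above the artificial tags and 16 in the brightest 25%. Both zebrafish pax6 genes, which specify the eye and persist in amacrine and ganglion cells, were among the brightest transcription factors. The pax6a values were 5429, 4653 and 4794, and those of pax6b 2590.4, 3118 and 2717. The SoxB1 gene sox3, which keeps neural progenitors undifferentiated, read 3377, 3973 and 3741 on a probe set whose identifier stem is shared with probe sets of hmga1a and eif5a. Its other 2 probe sets averaged 7.61 and 5.98 on the log2 scale, so its place rests on 1 of 3 probe sets. The related sox2 read 2097, 1372 and 1344 on its brightest probe set, with pool 1 above the others by 1.56-fold at most. Its other probe sets read 269, 174 and 283, with pool 3 highest, and 44.8, 50.7 and 51.5. The retinal regulator mab21l1 read 3138, 3244 and 4317.

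Paralogs within these families differed in signal. Of the SIX-type homeobox genes, which pattern the eye and forebrain, six3a averaged 2100.0 ± 66.2, six7 1642 ± 38.9, six6b 1064 ± 106, six3b 343 ± 61.7 and six6a 299 ± 23.5 (SD, n = 3 each). The ranges of six3b and six6a overlapped and those of the others did not. Of the Rx genes, rx3, the first of them in the eye field, averaged 758 ± 19.9, rx2 225 ± 25.2 and rx1 52.5 ± 1.39. Since each gene is read by its own probes, these orders are of array signal. The dimmest gene of the list was sfrp1a, a secreted Wnt antagonist, at 21.2, 21.7 and 22.4.

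Proneural factors stood at a median percentile of 84.2, with 18 of 19 above the artificial tags and 12 in the brightest 25%. The helix-loop-helix gene neurod1, active in photoreceptor and amacrine precursors, led at 5672, 4919 and 4634. Its relatives were far dimmer: neurod4 read 712, 484 and 869, neurod6a averaged 120.0 ± 6.33, neurod2 103 ± 7.87 and neurod6b 38.9 ± 5.14 (SD, n = 3 each). The amacrine-related bhlhe22 read 3269, 2694 and 3139.9. The SoxC genes, which act in newly born neurons, included sox4a at 3100.1, 2535 and 2939 and sox11a at 2118, 1959.7 and 1842. The other probe sets of sox11a averaged 7.49 and 6.85 on the log2 scale.

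The factor that makes retinal progenitors competent for the ganglion cell fate, atoh7, read 888, 643 and 718, at percentile 84.7. That of ascl1a, a progenitor and Müller glia factor, was 1165, 1235 and 1796. The pancreas and amacrine factor ptf1a, needed for horizontal and amacrine fates, read 169, 154 and 309, so pool 3 lay 2.01-fold above pool 2. Olig2, also used by retinal progenitors, read 889, 797 and 1093.

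Notch signalling holds back neighbouring progenitors from differentiating. Ligands of the Delta and Jagged types on 1 cell bind receptors on the next. The bound receptors are cut by proteases and switch on Hes and Hey repressors. Of 24 measured genes of the pathway, 17 were above the artificial tags, against 59.2% of all genes. In the brightest 25% there were 6, and the median percentile was 56.5. Ligands had a median of 305 over 7 genes, receptors 67.9 over 4, modifiers and proteases 269 over 6 and targets 160 over 7. The ligand gene dld read 2200.4, 2115 and 2202, and dla 914, 975 and 1015. The glycosyltransferase gene lfng, which tunes receptor choice of ligand, read 1929, 2459 and 2233.

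Receptors were the dimmest group of the pathway on these probe sets. The brightest, notch3, was also among the 12 genes with the widest range, at 206, 105 and 243. The receptor gene notch1a read 72.3, 89.5 and 84.5. Among the targets her4.2 read 276, 459.7 and 315, and heyl was the dimmest gene of the list at 12.8, 11.7 and 11.6, below the trpn controls.

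Photoreceptor genes differed in level by role. All 6 measured transcription factors of photoreceptor fate were above the artificial tags, with a median of 929, while the median was 47.6 for 7 opsins, 138 for 7 transducin subunits, 28.1 for 10 phosphodiesterase, cyclase and channel genes, 19.6 for 6 recovery and calcium genes and 35.5 for 6 outer segment genes. The 5 other photoreceptor genes, outside these groups, had a median of 347, and 4 of them were above the artificial tags. Of 95 photoreceptor genes listed, 47 were measured. Over these 47, the median percentile was 35.6 and 21 genes were above the artificial tags. No separate probe set for rho, arr3a or saga was used here. The grouping by role was drawn up after the levels had been seen.

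Crx, the homeobox factor that activates photoreceptor genes, read 4153, 4028 and 3614, at percentile 97.9. Nr2e3, a nuclear receptor that represses cone genes in rods, read 1774, 2003 and 1869. The gene six7, a fish factor for green cones, read 1673, 1598 and 1653 on 1 probe set and 17.3 to 19.7 on another. The thyroid hormone receptor gene thrb, used by red cones, averaged 317 ± 29.1 (SD, n = 3) and rxrga, a retinoid X receptor gene of cones, 191 ± 42.6.

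The Otx family, to which crx belongs, was uneven. Otx2b, an upstream regulator of crx that also acts in bipolar and pigment cells, read 4196, 3418 and 3807, overlapping with crx. Otx5 read 511, 460.4 and 617, and otx2a 40.8, 42.9 and 45.4, below the highest artificial tag.

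Opsins were dim. The ultraviolet opsin opn1sw1 read 103, 87.1 and 135, and the blue opsin opn1sw2 103, 86.1 and 97.8. These 2 of 7 were above the artificial tags, and both averaged below the EGFP probe set, at 147. The red opsin opn1lw1 read 45.6, 43.3 and 54.2, and the green opsin opn1mw1 52.58, 44.2 and 46.3. The extraocular rhodopsin exorh, a pineal opsin, read 69.7, 58.9 and 69.5.

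Of the genes acting after the opsins, 5 of 7 transducin subunits were above the artificial tags, 2 of 10 phosphodiesterase, cyclase and channel genes, and 1 of 6 recovery and calcium genes. The rod transducin alpha gene gnat1 read 111, 84.9 and 111, against 27.7, 26.8 and 27.3 for the cone gene gnat2. The second probe set of gnat1 read 40.4, 31.0 and 37.6 and that of gnat2 15.5, 15.7 and 15.05, so 1 of these 4 probe sets was above the artificial tags. The cone phosphodiesterase gene pde6c read 29.4, 30.9 and 18.7. Its inhibitory subunit pde6ha was brighter, at 405, 273 and 438. The guanylate cyclase activator guca1aa was the dimmest of the list at 11.2, 10.4 and 10.6. Among the brighter members apart from the transcription factors was gnb1b, a G protein beta subunit used outside photoreceptors too, at 3109, 3677 and 3319. The fatty acid elongase gene elovl4b read 2015, 1977 and 2266. The recoverin gene rcvrn2 read 1170.5, 995 and 1005, and rbp4l, a retinol-binding protein gene of the photoreceptor layer, 1249, 1079 and 1305. The gene aanat2, for a melatonin-forming enzyme of pineal and photoreceptors, read 422, 242 and 407.

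**Figure D3:**
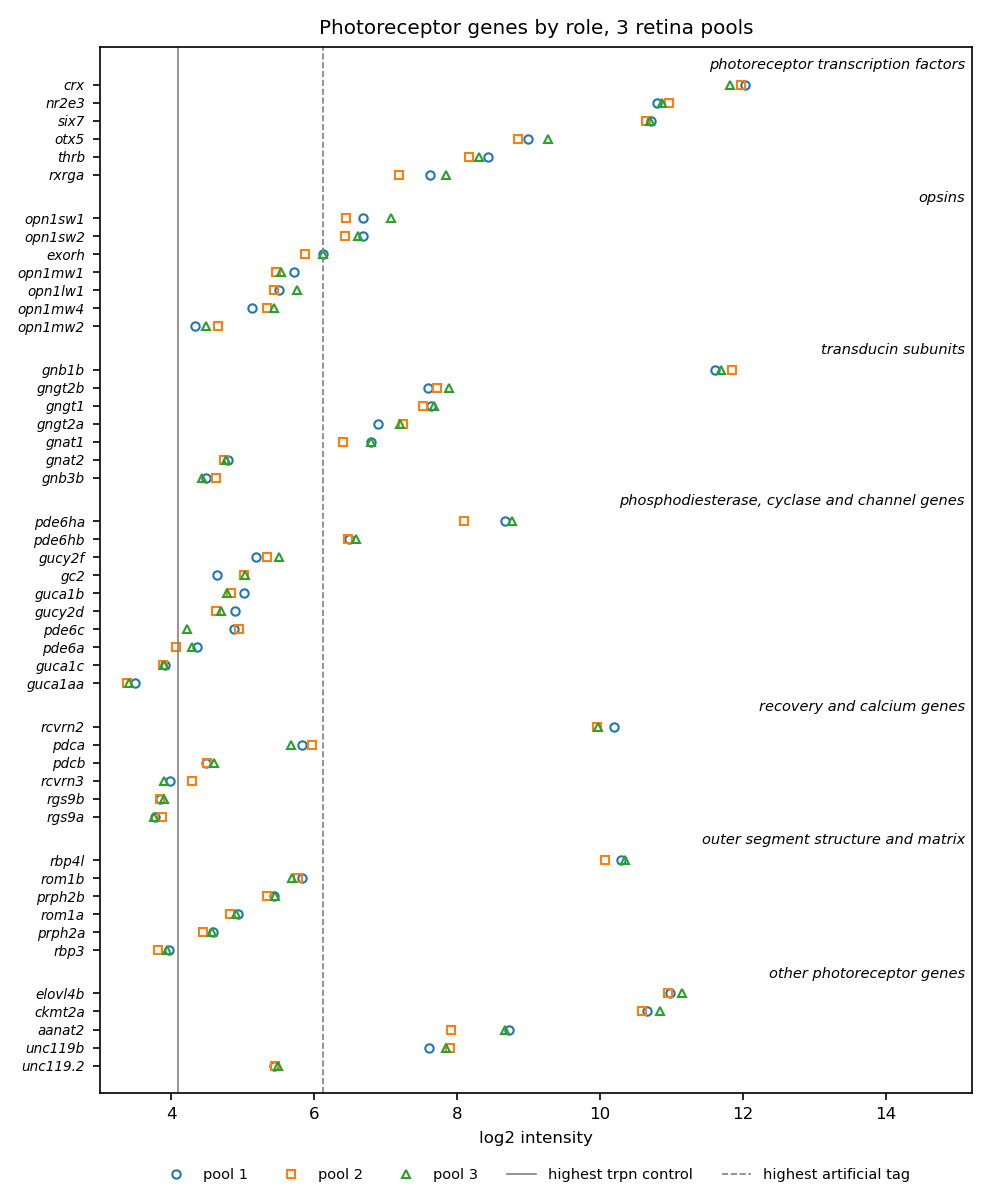
log2 intensity (horizontal axis) of 47 photoreceptor genes (rows, grouped by role) in the 3 retina pools (circles, squares and triangles). Vertical lines mark the highest trpn control and artificial tag probe sets; the 6 transcription factors lie right of the tag line, and 2 of 7 opsins do.

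Bipolar cells, which carry photoreceptor signals to the inner retina, were represented by 7 measured genes, of which 5 were in the brightest 25%. Vsx1, a homeobox gene of bipolar cells, read 5382, 3389 and 4661. Isl1a, shared with ganglion and amacrine cells, read 7044, 5341 and 6086 on a probe set that may match more than 1 transcript, and 384, 250 and 308 on its other one. The calcium-binding gene cabp5b, a marker of mature bipolar cells, was at 12.2, 11.8 and 11.8, below the trpn controls.

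Amacrine cells, the inhibitory interneurons of the inner retina, had a list median percentile of 64.3, with 17 of 24 genes above the artificial tags. Transcription factors and calcium-binding genes were brighter than transmitter genes, with medians of 509, 361 and 69.8 over 11, 4 and 8 genes. The factor tfap2a, needed for amacrine differentiation, was the brightest at 7197, 6221 and 6099. Its relatives tfap2b and tfap2c read 2542, 1983 and 1839, and 350.4, 244 and 379. The other probe set of tfap2c read 26.4, 30.5 and 26.2, below the highest artificial tag. The calretinin gene calb2b was steady at 3732, 3683 and 3773, and its paralog calb2a read 977, 1181 and 1132.

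Of the genes for inhibitory transmission, slc32a1, the vesicular GABA and glycine transporter, averaged 673 ± 78.2, gad1b, which makes GABA, 456 ± 66.6, and gad2 229 ± 18.7 (SD, n = 3 each). Markers of rarer subtypes lay below the highest artificial tag. The dopamine-forming th read 22.0, 23.6 and 22.1, and the neuropeptide gene npy 16.4, 16.4 and 17.8.

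Horizontal cells, which adjust photoreceptor output, had 1 of 10 genes in the brightest 25% and a median percentile of 41.8. Prox1a, a homeobox factor of horizontal and other cells, averaged 413 ± 70.6 and foxn4, a progenitor factor for horizontal and amacrine fates, 403 ± 16.1 (SD, n = 3 each). The other probe sets of foxn4 averaged 6.35 and 5.67 on the log2 scale. Lhx1a, a horizontal cell homeobox gene, read 70.09, 84.1 and 56.6, at the level of the highest artificial tag. Onecutl read 27.0, 23.0 and 28.1.

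Ganglion cells, the output neurons and the first to differentiate, had 24 of 30 genes above the artificial tags. After isl1a the brightest were dpysl3 and dpysl5a, which steer growing axons, at 2755, 2867 and 2829.7, and at 2467, 2548 and 2482. Gng3, a neuronal G protein gamma subunit, read 2599.7, 2083 and 2091, and irx4a, an Iroquois factor, 1639.6, 1305 and 1383. The other probe set of gng3 read 77.3, 74.9 and 69.8. The homeobox gene isl2a averaged 654 ± 81.2, and the growth cone gene gap43 693 ± 69.6 (SD, n = 3 each), and pou4f2, a Brn3 factor, read 123, 127 and 126. Among pan-neuronal RNA-binding proteins, elavl3 read 1259, 744 and 1092, and elavl4 126, 139 and 137. The other 3 probe sets of elavl3 averaged 6.30 to 7.69 on the log2 scale. L1cama, an axon adhesion gene, was the dimmest at 23.8, 22.6 and 22.5. No separate probe set for isl2b or pou4f3 was used here.

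Axon and cytoskeleton genes of neurons in general had a median percentile of 95.4, above that of every list of a single neuron class measured here. All 30 measured members were above the artificial tags and 23 were in the brightest 25%. The beta tubulin genes tubb2b and tubb4b read 11119.8, 10979.8 and 10624, and 9431, 9215 and 9588. Marcksb, an actin-regulating substrate of protein kinase C, read 10786, 8415 and 9098. The membrane glycoprotein gene gpm6aa read 8617, 7995 and 6726. Tubulins share sequence between copies, so which tubulin gene gave the signal is uncertain.

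Synaptic genes were bright as well, with 18 of 21 above the artificial tags, 12 in the brightest 25% and a median percentile of 85.3. Vesicle membrane genes had a median of 1118 over 9 genes, SNARE genes 523 over 4, and release site and recycling genes 452 over 8. Snap25b, a SNARE of the nerve terminal, read 4268, 3257 and 3873, while its paralog snap25a read 281, 285 and 287. The vesicle proteins sv2bb and sypb read 3627, 3177 and 3149, and 2794, 2174 and 1689.7, and the calcium sensor syt1a 1435, 1270.4 and 1342. The other probe sets of sypb averaged 9.74 and 7.21 on the log2 scale, and that of syt1a 9.23. The gene ctbp2a, which includes the ribbon protein of photoreceptor and bipolar synapses, read 2531, 2300.2 and 1949.8. Dnm1a, a dynamin of vesicle recycling, was at 10.2, 9.74 and 10.6, below the trpn controls.

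Müller glia, the last retinal cell type to form, share genes with radial glia and progenitors, and 12 of 18 were above the artificial tags, against 59.2% of all genes. Fabp7a, a radial glial lipid-binding gene, read 3370.2, 3214 and 4071, and slc1a2b, a glutamate transporter, 2835, 2696 and 2593. Glutamine synthetase was represented by glulb at 2005, 1985 and 1952 and glula at 342, 409.9 and 374. The other probe set of glulb read 26.8, 26.7 and 24.3, below the highest artificial tag. Rlbp1a, a retinaldehyde-binding gene of RPE and Müller glia, read 1136, 1270.2 and 1437. The intermediate filament gene gfap read 25.6, 29.1 and 31.0 and s100b 14.6, 14.6 and 12.6, both below the highest artificial tag.

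Immediate early and stress genes, which respond to handling and dissection, had 32 of 54 members above the artificial tags, close to the 59.2% of all genes. Apart from hspa8 and hsp90ab1, the brightest were hspe1, a mitochondrial chaperonin, at 1721, 2001 and 2102 and the kinase gene pim1 at 1885, 1742 and 1827. The activity-induced genes fosab and egr1 read 241, 151 and 213, and 43.8, 42.0 and 43.6. The inducible chaperone hsp70.3 read 52.2, 52.0 and 61.0.

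Markers of tissues next to the retina were read to check the dissection. Of 21 measured pigment cell and RPE genes, 10 were above the artificial tags and 2 in the brightest 25%. Those 2, paics and impdh1b, make purines in any growing cell and read 914, 904 and 1171, and 794, 688 and 769.8. The other probe set of impdh1b read 35.6, 34.9 and 37.2, below the highest artificial tag. Among the defining markers dct, a melanin enzyme, read 194, 173 and 200.3, rgrb, an RPE and Müller opsin, 144, 137 and 160.5, rpe65a, the retinoid isomerase, 67.5, 66.1 and 87.8, and pmelb, a melanosome protein, 59.0, 46.4 and 53.3. The melanin enzyme tyr and the retinol receptor stra6 read 30.8, 33.2 and 33.2, and 36.8, 40.8 and 30.0. The summed intensity of the list was 3363, 3364 and 3928 in the 3 pools, highest in pool 3, where paics and another purine synthesis gene, atic (299.6, 362 and 451), were also highest. Whether RPE fragments took part in any result was not tested.

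Of 54 lens genes listed, 10 were measured, and these were dim, with 1 of 10 above the artificial tags. The crystallin gene cryaa read 75.8, 72.8 and 76.2 and crybb1 55.4, 70.8 and 74.8. The summed intensity of the measured lens genes was 415, 421 and 439. Of 22 erythrocyte genes 5 were above the artificial tags and 1 in the brightest 25%, the embryonic alpha globin hbae3 at 2651, 3124 and 3511, while its other probe set read 368, 300 and 445 and the beta globin hbbe3 110.2, 107 and 113. The haem synthesis gene alas2 read 59.3, 64.0 and 68.4. The summed intensity of the erythrocyte list was 3992, 4481 and 5024, most of it hbae3.

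Marker genes of other tissues mostly read close to the controls. Above the artificial tags were 2 of 14 endothelial, 2 of 27 leukocyte and 4 of 33 mesenchyme genes. So were 3 of 37 muscle and 3 of 50 skin genes. None of these lists had a member in the brightest 25%. The brightest leukocyte gene, apoeb, read 141, 173 and 190. The brightest skin gene, perp, read 196, 187 and 163, and 36.7, 31.6 and 38.8 on its other probe set. The vessel receptor kdrl read 56.2, 70.4 and 67.3, and the neutrophil enzyme mpx 57.1, 63.9 and 66.0. The keratin krt4 averaged 42.8 ± 11.2, and the collagen col1a1a 48.7 ± 5.67 (SD, n = 3 each), while the muscle creatine kinase ckma read 99.01, 95.02 and 86.9. The summed intensities over the pools were 551 to 620 for the endothelial list, 1142 to 1250 for leukocytes, 1555 to 1687 for mesenchyme, 1328 to 1405 for muscle and 1625 to 1657 for skin.

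Genes of distant organs marked the silent end. None of 42 Hox genes, which pattern the trunk and hindbrain and are not used in the eye, was above the artificial tags, and the brightest, hoxd4a, read 50.6, 55.8 and 59.06. Yet 30 of the 42 were above the trpn controls, against 90.7% of all genes. Lists of liver and yolk, pancreas and gut, heart, and kidney, pituitary and ear had median percentiles between 14.7 and 16.8, with 3 of 44, 5 of 32, 1 of 18 and 2 of 18 genes above the artificial tags. Insulin, a pancreatic hormone, read 66.9, 96.9 and 82.6 for ins, and prolactin, a pituitary hormone, 10.1, 10.9 and 10.5 for prl.

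A few genes of silent lists were bright. Gbx2, a hindbrain patterning gene that the retina also uses, read 805, 903 and 918. Together with olig2 it made up the 2 of 39 genes of the list of oligodendrocytes and other brain regions that reached the brightest 25%. In that list 4 genes were above the artificial tags, as were 3 of 25 germ line genes. The germ cell gene dnd1 read 446, 453 and 492 on 1 probe set and 17.97 to 19.9 on the other. The cadherin cdh11, of the mesenchyme list, read 272, 287 and 288. Its other probe set read 34.7, 41.9 and 35.4, below the highest artificial tag.

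The 8 dimmest genes of all were zgc:92161, igfals, fgl2a, zgc:91968, pax1b, tnfrsf19, nid1a and zgc:100846. Pax1b, a factor of the sclerotome and pharyngeal pouches, read 9.48, 9.15 and 9.08, and nid1a, a basement membrane protein gene, 9.26, 9.44 and 9.29. The glycolytic gene gapdh, of the muscle list, read 73.4, 76.0 and 82.3, while its relative gapdhs, in no list, read 6662, 6233 and 7947.

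Pools repeated each other closely. The SD over the 3 pools had a median of 0.119 on the log2 scale over all genes, or 1.09-fold, and of 0.146 over the 5337 genes with a mean log2 of 6 or more. It was 0.0840 for genes below 5 on the log2 scale, rose to 0.158 between 8 and 9, and was 0.125 at 12 and above. In those 5337 genes the highest pool was at least 2 times the lowest in 41 (0.768%) and at least 1.5 times in 451 (8.45%), and it was within 1.1 times in 890. The count of 41 was 16, 13 and 19 over the pairs left without pool 1, 2 and 3, since a pair spans less than 3 pools, and 27 with probe sets marked S only.

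Of the 41 genes, 27 were highest in pool 1, 5 in pool 2 and 9 in pool 3, against 36%, 29% and 35% of the 5337 genes. Pool 2 was the lowest in 25, pool 3 in 13 and pool 1 in 3. The widest range was that of mknk2b, a kinase acting on the cap-binding factor eIF4E, at 315, 101 and 256, a 3.12-fold difference. Its other 2 probe sets ranged by 1.11-fold and 1.12-fold, at 73.8 to 82.0 and 50.2 to 56.1. The endoplasmic reticulum chaperone erp44 read 252, 139 and 94.2, and the histone demethylase kdm5bb 714, 569.8 and 269.

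Several of these genes were well above background. The RNA-binding protein gene taf15 read 2485, 1697 and 961, and the synaptic adhesion gene cadm3 3451, 1452 and 3144, so that pool 2 was the low one. Hsf2, a heat shock transcription factor, read 494, 1215 and 616, with pool 2 high. The respiratory complex III gene uqcrc1 read 1209, 815 and 1916. The lysozyme gene lyz, a marker of myeloid cells, read 100.4, 61.8 and 149.9, while the neutrophil gene mpx ranged over 1.16-fold. The membrane protein gene stom read 219.5, 83.9 and 153. The last 3 were notch3, described with its pathway, tnpo2a and mchr1b. Tnpo2a, a nuclear import receptor gene, read 99.2, 42.0 and 67.1, with a mean below the highest artificial tag. Mchr1b, a melanin-concentrating hormone receptor gene, read 130.1, 55.51 and 71.5, and 26.6, 30.3 and 28.5 on its other probe set.

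**Figure D4:**
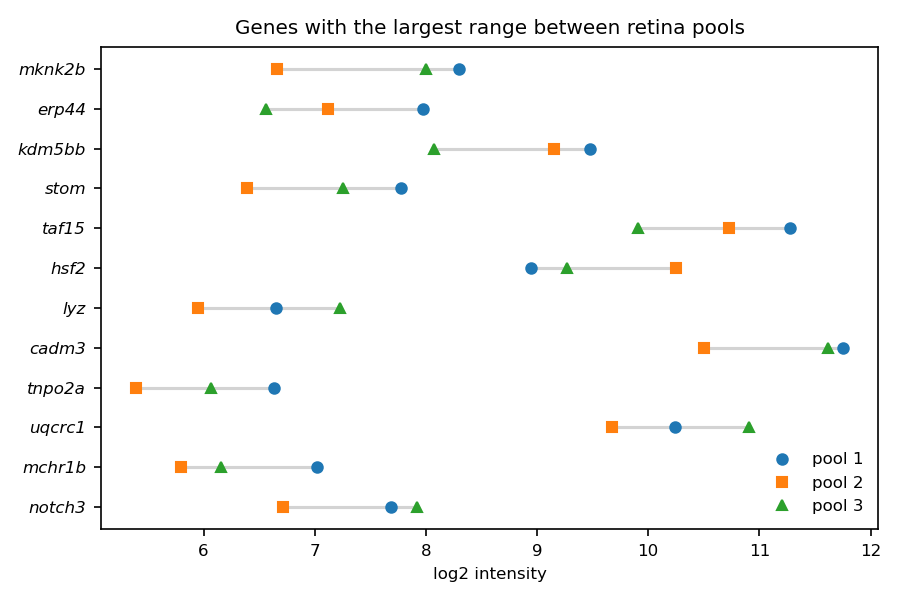
log2 intensity (horizontal axis) in each of the 3 retina pools (circles, squares and triangles) of the 12 genes with the widest range among those of mean log2 6 or more. Grey lines join the lowest and highest pool, which differ by 3.12-fold for mknk2b at the top.

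Some gene lists differed between pools together. Pool 3 was the highest in 64 of 86 oxidative phosphorylation genes, 50 of 70 ribosomal protein genes and 41 of 78 cell cycle genes, against 36.5% of all genes. Pool 1 was the highest in 16 of 21 synaptic genes, 17 of 30 cytoskeleton genes and 7 of 7 bipolar genes. Its share over all genes was 31.8%. Among genes of mean log2 6 or more, pool 1 was the highest in 36% and pool 3 in 35%. The 7 bipolar genes include cabp5b, which was below the trpn controls. The shifts were small: the median deviation from the 3-pool mean was -0.13, -0.04 and 0.17 on the log2 scale in pools 1, 2 and 3 for oxidative phosphorylation, and 0.13, -0.04 and -0.05 for synaptic genes. Over all genes these deviations were -0.01, 0.00 and 0.01.

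Which pool is highest for a list is relative to the centring of the arrays. Centring on ribosomal protein genes adds 1 constant per array to every gene, so it moves all lists alike and leaves the differences between lists as they were. By that constant the gap between highest and lowest pool became 0.04 for oxidative phosphorylation and 0.45 for synaptic genes, against 0.30 and 0.18 in the deposited values, and pool 1 instead of pool 3 was highest for the cell cycle list. The pools also differed in their technical controls. All 18 probe sets of the hybridization controls, added after amplification, were highest in pool 1, by 1.41 to 2.28 times the mean of pools 2 and 3. They read bioB, bioC, bioD and cre RNA with several probe sets each, so they are not independent. Dap, a control RNA that can be added to the sample, was read by 2 probe sets at its 3' end. Their medians were 78.8, 172 and 131, lowest in pool 1. The EGFP probe set, for a sequence the embryo lacks, read 128, 150 and 164, so these values do not show that dap RNA was added. The 3' and 5' control probe sets of gapdhs read 6141, 5999 and 7529, and 759, 615 and 913. The part of these controls in the shifts between pools was not tested.

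**Figure D5:**
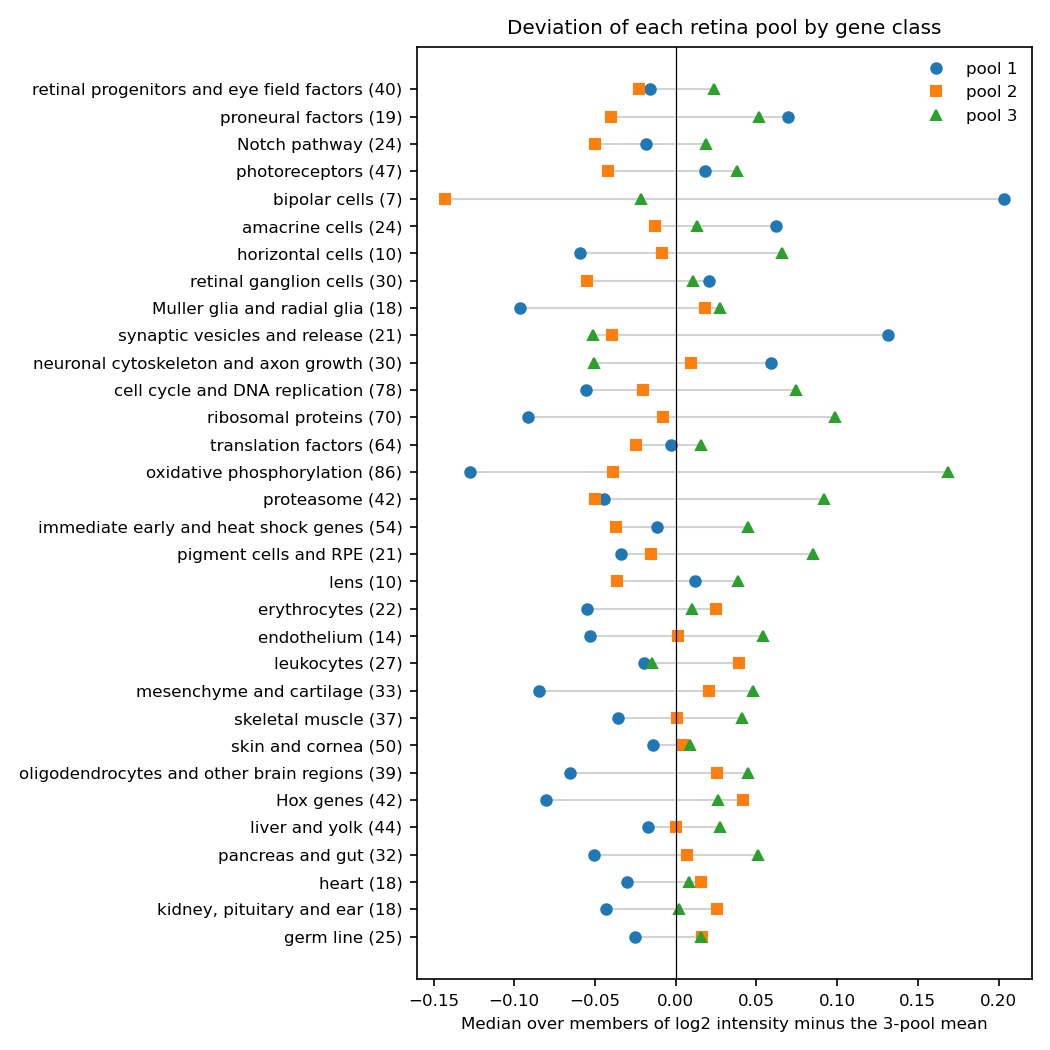
Median over the members of each gene list (rows, number measured in brackets) of log2 intensity minus the 3-pool mean (horizontal axis) in retina pools 1, 2 and 3 (circles, squares and triangles). Pool 3 is highest for oxidative phosphorylation (0.17) and pool 1 for synaptic genes (0.13), relative to the deposited centring of the arrays.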

How the data were processed

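Each deposited value is a linear intensity of 1 probe set on 1 array. The submitters' processing notes name RMA, affy and R 2.2.0, without saying in which order. RMA corrects background, equalizes arrays and summarizes probes, so low values are compressed. The sources used here do not say if other arrays entered the normalization.

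Intensities of the 3 retina arrays were log2 transformed and averaged. Gene names came from the platform annotation. It listed 135 probe sets with several genes and did not list 4572; 10711 probe sets matched a current identifier and 1 symbol was updated. Genes were ranked by the probe set with the highest mean. With 1 group there was no test. Error is the SD over 3 pools.

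The rule for named genes took the 20 brightest, the 4 brightest and the dimmest member of each of 32 lists, the 12 widest ranges among genes of mean log2 6 or more, the 8 dimmest, and a set of markers and families of which a part is printed. Members outside it, such as ckbb, mdh1aa, cdkn1ca and plk1, were chosen after their values were seen, as were the groupings by role. Members and lists were chosen with earlier results of these data known.

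The steps were tested on simulated data. The alternatives covered normalization, choice of probe set, a pseudocount of 16, background level, a filter on dim genes, centring and each pool left out. Python 3.11.15, pandas 2.3.3 and matplotlib 3.10.9 were used. No sequences are shown, since no sequence table was used here.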

Additional observations from a re-analysis of the deposited data

How the results depend on the processing

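The count of genes above background depended on the control. It was 7977 with the trpn controls, 5337 at a log2 of 6, 4213 at 7 and 4753 at the 95th percentile of genes of organs outside the eye. With the highest artificial tag it was 5202 and with the highest fluorescent protein 4017, both chosen after seeing the data. Leaving out each pool gave 7953 to 7998. The median SD of 0.119 became 0.0967 with a pseudocount of 16, 0.146 for genes of mean log2 6 or more, and 0.0916 to 0.101 without each pool, where the SD of a pair has a lower median by construction. The 41 genes with a 2-fold range became 13 to 19 without each pool, because a pair spans less than 3 pools, and 27 with probe sets marked S only, an alternative added after seeing the data that tests fewer genes. The 100 brightest shared 90 to 100 genes with each alternative. Of 32 lists, 15 had a median percentile above 50, and 14 when a gene was read by the median of its probe sets, where 22 medians moved, by up to 7.15 points. Quantile normalization of the 3 arrays changed which pool was highest in 3 of 32 lists. Centring on ribosomal genes did so in 24, which follows from the constant it adds to every gene of an array and says nothing of single lists. Both were added after seeing the data. No paired analysis was possible because no groups are compared. The 3 arrays limit the precision, and signal near the controls has no interpretable order.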

Other observations

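Probe sets of 1 gene differed by more than the spread between pools in several named genes. The cold-inducible RNA-binding gene cirbpb, among the 20 brightest, read 113, 110.0 and 104 on its other probe set, 6.85 lower on the log2 scale. For hmga1a, 4 probe sets spanned 6.18 on that scale, and the third in order read 556, 1201 and 684 in pools 1, 2 and 3, a range of 2.16-fold that its brightest probe set (a range of 1.1-fold) did not show. The 2 probe sets of eif5a, a translation factor, differed by 2.84 on the log2 scale. In stom, pool 1 was highest on 1 probe set (219.5, 83.9 and 153) and pool 3 on the other (27.5, 28.5 and 49.3).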
